A study of Mus musculus with 14 samples.

Results

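The regions described here are stretches of chromatin between genes that carried histone H3 acetylated at lysine 27 (H3K27ac) in all 4 libraries of bone-marrow progenitors and at which no binding of the demethylase UTX was called. Overlapping H3K27ac islands, the enriched stretches that the peak caller SICER listed for each library, were merged, which gave 18820 regions with an island in all 4 libraries. Of these, 2484 were narrower than 20 kb, lay more than 2 kb from every annotated protein-coding gene and met no island of either UTX library. These 2484 regions (called intergenic regions below) had a median width of 5000 bp, a range of 400 to 19800 bp, and a median gap of 24.3 kb to the nearest protein-coding gene. They were chosen by H3K27ac in every library and by the lack of a UTX island, so neither is a result. A region that loses its island altogether in 1 genotype cannot be among them.

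H3K27ac is laid down by the acetyltransferases CBP and p300 and marks active promoters and active distal enhancers. UTX (KDM6A) removes methyl groups from H3K27me3, the mark of Polycomb repression, and is a subunit of the MLL3 and MLL4 complexes, which act at enhancers. Enhancers can act over long distances and can skip genes, so the nearest gene named here gives a position, not a target.

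The cells were lineage-depleted bone-marrow haematopoietic stem and progenitor cells from C57BL/6 mice, wild type (WT) in 1 group and UTX knockout (KO) in the other. H3K27ac and H3K27me3 were each profiled by ChIP-seq in 2 WT and 2 KO libraries, UTX in 2 WT libraries, and an IgG library made beside a BCOR precipitation gave 1 background. 3 further samples of the 14, which are inputs and another IgG, were not analysed here. The labels state neither age, sex nor how UTX was deleted, nor whether libraries of 1 genotype came from separate animals, so p-values measure the spread between libraries only.

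H3K27ac libraries held 9330823 and 15256696 reads in islands in WT, and 14763744 and 11121847 in KO. The UTX libraries held only 816567 and 1834418 reads in islands, so the lack of a UTX island is not the absence of UTX. Kdm6a, the gene of UTX, kept H3K27ac islands in every library, and island lists could not check the deletion. Those islands held 1840 and 1562 reads for WT and 2674 and 2059 for KO, counts not scaled to the unequal depths above. H3K27ac islands were present in all 4 libraries within 2 kb of 21 of 28 stem cell marker genes. The same held for 29 of 35 granulocyte and monocyte genes and 23 of 26 B cell genes. Of 26 T and NK cell genes 12 had them, and 4 (Cd3e, Cd4, Cd8a and Ncr1) met no island in any library. Markers of several lineages moved with the genotype. Summed H3K27ac at 38 GATA and erythroid genes was 6940 and 8100 rpm (reads per 1000000 island reads) in WT and 3620 and 3930 in KO. At 26 B cell genes it was 1210 and 1190 in WT and 2280 and 2860 in KO. At 10 eosinophil genes it was 364 and 288 in WT and 1050 and 1030 in KO, with none at Ear1 or Ear2, and at 26 T and NK cell genes it was 964 and 861 in WT and 1800 and 1360 in KO. Granulocyte and monocyte genes stood at 2530 and 2690 in WT and 3600 and 3140 in KO, and stem cell genes at 5340 and 5270 in WT and 5070 and 4680 in KO. Smaller differences without overlap were seen at megakaryocyte genes (1890 and 1960 in WT, 1850 and 1760 in KO), dendritic cell genes (2630 and 2760, then 2620 and 2570) and basophil and mast cell genes (783 and 666, then 818 and 825). Stromal and endothelial genes overlapped (1160 and 1230, then 1190 and 1120), and 10 of those 18 met no island. The part that a different mix of cells plays in any change below was not tested, and in these bulk libraries fewer cells of a type and less of the mark per cell cannot be told apart.

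No genome of this build was at hand for the regions themselves, but 251 of them (10.1%) held an annotated start of a long non-coding RNA (lncRNA), 259 lncRNAs in all. The 4 windows shown are promoters of such lncRNAs in regions that were called and did not overlap between the genotypes, from RefSeq on build GRCm38.p6 (mm10), 250 bases before to 50 bases after the annotated start, written 5′ to 3′ on the strand of the transcript. Capitals mark exact matches, on either strand, to 3 short motifs bound by blood transcription factors: AGATAA for GATA factors, AGGAAG for ETS factors and TGTGGT for RUNX factors. Regions with the first 2 windows were lower in KO, and regions with the last 2 were higher.
Gm42210: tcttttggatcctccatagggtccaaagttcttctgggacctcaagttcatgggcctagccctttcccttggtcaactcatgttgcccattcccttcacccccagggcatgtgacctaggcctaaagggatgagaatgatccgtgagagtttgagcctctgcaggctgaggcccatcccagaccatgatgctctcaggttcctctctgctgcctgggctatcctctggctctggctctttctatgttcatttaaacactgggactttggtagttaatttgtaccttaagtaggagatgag
Gm29933: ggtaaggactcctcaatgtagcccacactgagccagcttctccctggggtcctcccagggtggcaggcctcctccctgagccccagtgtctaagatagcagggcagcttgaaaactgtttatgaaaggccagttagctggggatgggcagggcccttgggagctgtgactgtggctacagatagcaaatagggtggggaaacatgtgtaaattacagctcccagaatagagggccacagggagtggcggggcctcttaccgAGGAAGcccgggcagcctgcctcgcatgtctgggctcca
Gm51802: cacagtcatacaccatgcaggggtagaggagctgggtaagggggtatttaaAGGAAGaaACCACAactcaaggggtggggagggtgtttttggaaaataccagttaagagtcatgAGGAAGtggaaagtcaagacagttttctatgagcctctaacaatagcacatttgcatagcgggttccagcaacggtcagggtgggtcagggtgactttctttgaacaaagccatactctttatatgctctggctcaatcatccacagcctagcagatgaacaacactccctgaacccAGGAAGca
Gm40161: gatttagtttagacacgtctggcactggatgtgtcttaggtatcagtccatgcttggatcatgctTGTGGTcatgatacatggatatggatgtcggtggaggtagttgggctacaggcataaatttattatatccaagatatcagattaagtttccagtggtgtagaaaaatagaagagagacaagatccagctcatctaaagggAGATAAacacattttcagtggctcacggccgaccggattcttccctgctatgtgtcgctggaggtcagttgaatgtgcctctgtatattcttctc
Gm42210 has a window at chr3:37752951-37753250 (plus strand), inside a region near Gm5148 whose H3K27ac had a log2 fold change (KO over WT) of -2.36, and its window held none of the 3 motifs. Gm29933 has a window at chr11:95808555-95808854 (minus strand), near Phospho1, in a region at -1.64, and held 1 ETS match. Gm51802 has a window at chr10:60162342-60162641 (minus strand), near Chst3, in a region at 1.85, and held 3 ETS matches and 1 RUNX match. Gm40161 has a window at chr3:144053795-144054094 (minus strand), near Lmo4, in the region with the largest rise, and held 1 GATA match and 1 RUNX match. Over the 284 RefSeq windows that lay in these regions, 14.8% held the GATA letters, 46.1% the ETS letters and 18.3% the RUNX letters. Of all 32851 mouse windows of the same length 11.2%, 35.4% and 16.8% held them. By the choice of regions the 284 windows start no protein-coding gene. They were not matched to the others for type of gene or base composition, and the shares were not tested. In the 43 windows of regions higher in KO the letters were found in 11, 19 and 12, and in the 26 windows of regions lower in KO in 3, 9 and 4. A match is a description of the sequence and not a binding site.

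More of these intergenic regions gained than lost H3K27ac in KO progenitors. Of 2484 regions, 285 were higher in KO (11.5%) and 157 were lower (6.32%), by edgeR's quasi-likelihood test at a Benjamini-Hochberg adjusted p under 0.05, and 2042 did not pass. Over all 18820 tested regions 12% were higher and 14% were lower. The share of intergenic regions that rose was near that of all regions and the share that fell was lower. These regions were also weaker, with a median of 14.3 CPM (reads in tested regions scaled to 1000000 per library) against 31.8 CPM over all. By level, the shares under 20 CPM lay close together, but those above it lay further apart. Above 40 CPM 27.5% of the intergenic regions were higher and 12.9% lower, against 13.3% and 21.2% of all. That bin is not a like level, as it reaches 108 CPM in the intergenic regions and 1090 CPM over all. Differences of more than 2-fold were called higher in 144 and lower in 90, against 4.46% and 5.68% of all tested regions. The median log2 fold change (KO over WT) was 0.10 in these regions and -0.00 in all. The 4 libraries did not overlap between genotypes in 883 regions that stood higher in KO and 563 that stood lower (35.5% and 22.7%), against 32.7% and 33.5% of all. The calls depended on each library: without WT replicate 1, 144 were higher and 81 lower (7.40% and 9.36% of all regions), and without WT replicate 2 139 and 58 (6.52% and 7.27%). Without KO replicate 1 there were 158 and 117 (7.22% and 10.1%), and without KO replicate 2 166 and 98 (7.15% and 9.94%). Of the 442 calls, 123 passed in all 4 of these fits (80 higher and 43 lower).

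**Figure D1:**
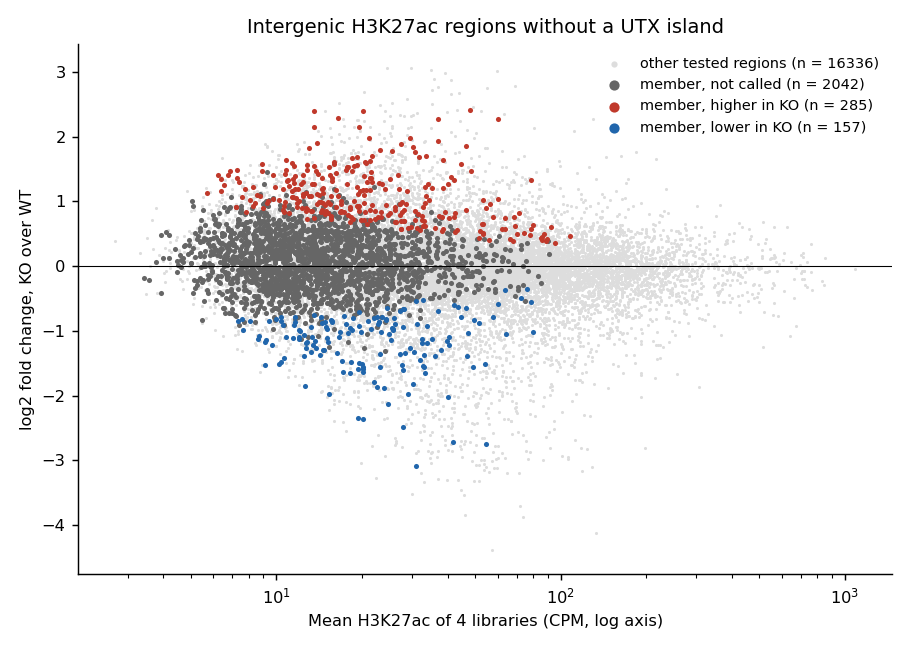
Log2 fold change of H3K27ac (KO over WT, y axis) against the mean level of the 4 libraries in CPM (reads scaled to 1000000 per library, log x axis), 1 point per merged region. Grey dots are the other tested regions. Of the 2484 intergenic regions without a UTX island, 285 (red) were called higher and 157 (blue) lower in KO, and 2042 (dark grey) were not called.

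The size of a change went with the length of chromatin that the islands covered. A region's count is the sum of the reads in its islands, so reads and island length are linked. Whether longer islands add reads or more of the mark lengthens islands cannot be told apart here and was not tested. Among the 285 regions called higher, the median log2 ratio of island bases (2 KO over 2 WT libraries) was 0.70, and both KO libraries had longer islands than both WT libraries in 227. Among the 157 called lower that median was -0.62, and islands were shorter in both KO libraries in 107. Across the 2484 regions the log2 fold change of reads and the log2 ratio of island bases had a Pearson correlation of 0.801, a description in which both values come from the same islands. With reads counted per covered base, edgeR called 6 higher and 9 lower (40% of calls higher, against 64.5%), beside 0.420% and 1.38% of all regions, and 14 of the 442 calls were kept. The fold change per covered base had the same sign in 228 of the 285 and 136 of the 157. Among the 219 regions with 1 island per library of similar length, edgeR called 39 higher and 19 lower (17.8% and 8.68%), against 14.8% and 14.8% of the 1810 such regions overall. Of these 219, the fit on all regions had called 17 (14 higher and 3 lower), and all 17 passed again; the other 41 calls were made only in the refit on this smaller set. With scaling to total island reads in place of TMM the median over all regions moved up by 0.113, and 75.8% of calls in the intergenic regions were higher. Rises also outnumbered falls over all 18820 regions with this scaling, at 3213 against 2061. With TMM, 2258 of all regions were higher and 2631 lower, so this move towards rises was not particular to the intergenic regions.

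**Figure D2:**
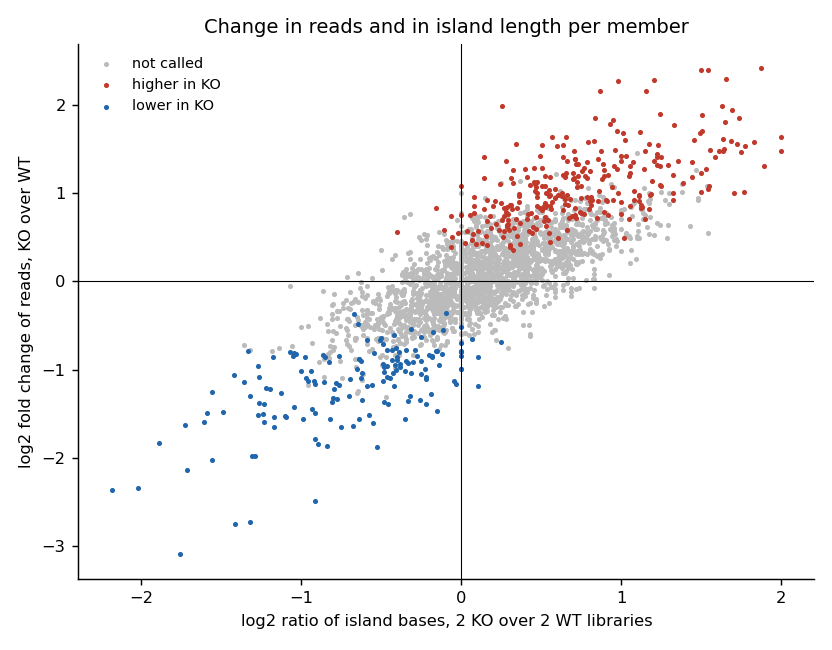
Log2 fold change of reads (y axis) against the log2 ratio of bases covered by islands in the 2 KO over the 2 WT libraries (x axis), 1 point per intergenic region. Regions called higher in KO (red) lie mostly at positive ratios, with a median of 0.70, and regions called lower (blue) mostly at negative ones, with a median of -0.62.

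The intergenic regions were weaker than other H3K27ac regions. Their median level was 14.3 CPM (quartiles 9.97 and 22.4, range 3.41 to 108), against 28.4 CPM in the 1288 intergenic regions that met a UTX island and 31.8 CPM over all. In the intergenic regions with UTX, 9.47% were higher and 14.9% lower in KO, and in the 4552 regions at genes without UTX 15.2% were higher and 7.49% lower, shares that were set side by side without a test. Calls grew with level. Under 10 CPM 4.63% of the intergenic regions were higher and 1.92% lower, against 6.06% and 2.58% of all tested regions at that level. From 10 to 20 CPM the shares were 10.6% and 5.61%, against 11.1% and 6.96% of all. From 20 to 40 CPM they were 15.7% and 10.5%, against 12.9% and 12.9%. Above 40 CPM, where 178 of the intergenic regions lay, they were 27.5% and 12.9%, against 13.3% and 21.2%. These shares were set side by side without a test. The shares varied less with distance from genes: the share higher was 10.6% within 10 kb, 10.4% from 10 to 50 kb, 14.5% from 50 to 100 kb and 13.2% beyond 100 kb, and the share lower 6.38%, 6.47%, 7.24% and 5.0%. In all, the 2484 regions took 3.95% and 3.96% of H3K27ac island reads in WT and 4.60% and 4.53% in KO. That share was higher in both KO libraries (3.96% ± 0.0117 to 4.57% ± 0.0476, mean ± SD, n = 2), and an exact two-sided permutation test gave p = 0.333, the smallest that 2 against 2 libraries allow.

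The region with the largest fall lay 125 kb from Gadd45g, a stress and growth-arrest gene, at chr13:51973601-51983000. It read 49.6 and 60.9 CPM in the WT libraries and 6.98 and 5.94 CPM in the KO libraries. The genotypes were far apart, with a log2 fold change of -3.09 (SE 0.203, edgeR adjusted p = 0.000293). A region 4.65 kb from Slc38a9, which encodes an amino acid sensor of the lysosome, read 86.5 and 103 CPM in WT and 14.4 and 13.8 CPM in KO (log2 fold change -2.75 with SE 0.142, adjusted p = 0.000191 by edgeR). Near Vps8, a subunit of an endosomal tethering complex, the values were 68.7 and 76.5 CPM in WT and 7.69 and 14.6 CPM in KO. These 3 were also lower per covered base, at -1.34, -1.32 and -1.37 on the log2 scale with adjusted edgeR p of 0.0266, 0.0266 and 0.0232. Regions near Cdk20, a cyclin-dependent kinase, and Nek2, a kinase of the centrosome, fell by 2.48 and 1.87 on the log2 scale and were lower per covered base too. The Cdk20 region read 39.9 and 54.3 CPM in WT and 4.70 and 12.4 CPM in KO, and its call did not hold without each library in turn.

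The other 7 of the 12 largest falls were not called per covered base. A region 14.3 kb from Hopx, a homeodomain gene of quiescent stem cells, read 24.0 and 24.7 CPM in WT and 6.05 and 6.31 CPM in KO (log2 fold change -1.98). Islands there spanned 5200 and 6200 bp in WT and 2400 and 2200 bp in KO, so the KO islands were shorter as well. Near Cdyl, a chromodomain corepressor, a region went from 44.2 and 48.3 CPM to 9.04 and 14.6 CPM (log2 fold change -1.98). The falls near Gm5148, Panx1, a channel gene, Gm38457, Asb17 and Ccnq, a cyclin gene, lay between -2.36 and -1.86 on the log2 scale.

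The region with the largest rise, at chr3:144038201-144054800, lay 134 kb from Lmo4, a LIM-domain transcriptional adaptor. It read 8.35 and 21.2 CPM in WT and 68.8 and 93.2 CPM in KO (log2 fold change 2.41 with SE 0.369, adjusted p = 0.00419 by edgeR). Both KO libraries were well above both WT libraries, and its islands spanned 3000 and 5400 bp in WT and 15200 and 15600 bp in KO. Between Fli1 and Ets1, 16.4 kb from Ets1, a region at chr9:32605001-32619800 read 25.4 and 16.5 CPM in WT and 86.9 and 112 CPM in KO (log2 fold change 2.27 with SE 0.223, adjusted p = 0.000831 by edgeR). Ets1 encodes an ETS factor of lymphocytes. A region 88.7 kb from Lef1, a Wnt effector of lymphoid progenitors, read 6.35 and 3.79 CPM in WT and 20.9 and 23.5 CPM in KO (log2 fold change 2.15). A region 45.5 kb from Foxo1, a factor needed in early B cells, read 7.29 and 6.98 CPM in WT and 26 and 37.6 CPM in KO (log2 fold change 2.15), and it met an H3K27me3 island in all 4 libraries of that mark. Of these, the Ets1 and Lef1 regions were also higher per covered base (log2 1.28 and 1.27, edgeR adjusted p = 0.0476 and 0.0371).

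Rises of similar size lay near genes of varied function. A region 36.4 kb from Gmpr, a purine nucleotide enzyme, read 12.4 and 11.5 CPM in WT and 38.5 and 55.9 CPM in KO, with islands of like length (4000 and 4200 bp in WT, 5200 and 4600 bp in KO), and was higher per covered base by 1.75 on the log2 scale (edgeR adjusted p = 0.0214). Regions near Rnf144a, a ubiquitin ligase, Arid1b, a subunit of BAF remodelling complexes, Pigyl, and Gpc1, a heparan sulfate proteoglycan, rose by 2.40, 2.39, 2.29 and 2.28 on the log2 scale. The last 3 of the 12 lay near Fsip1, Mnd1, a gene of meiotic recombination, and Trp53i11, at 1.98, 1.94 and 1.90. The Trp53i11 call did not hold without each library in turn. A region 31.5 kb from Gatm, a creatine synthesis gene, was picked out after its values were seen because its islands spanned 3200 bp in every library: it read 21.8 and 21.3 CPM in WT and 45.0 and 45.9 CPM in KO (log2 fold change 1.08 with SE 0.150, adjusted p = 0.00294 by edgeR).

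**Figure D3:**
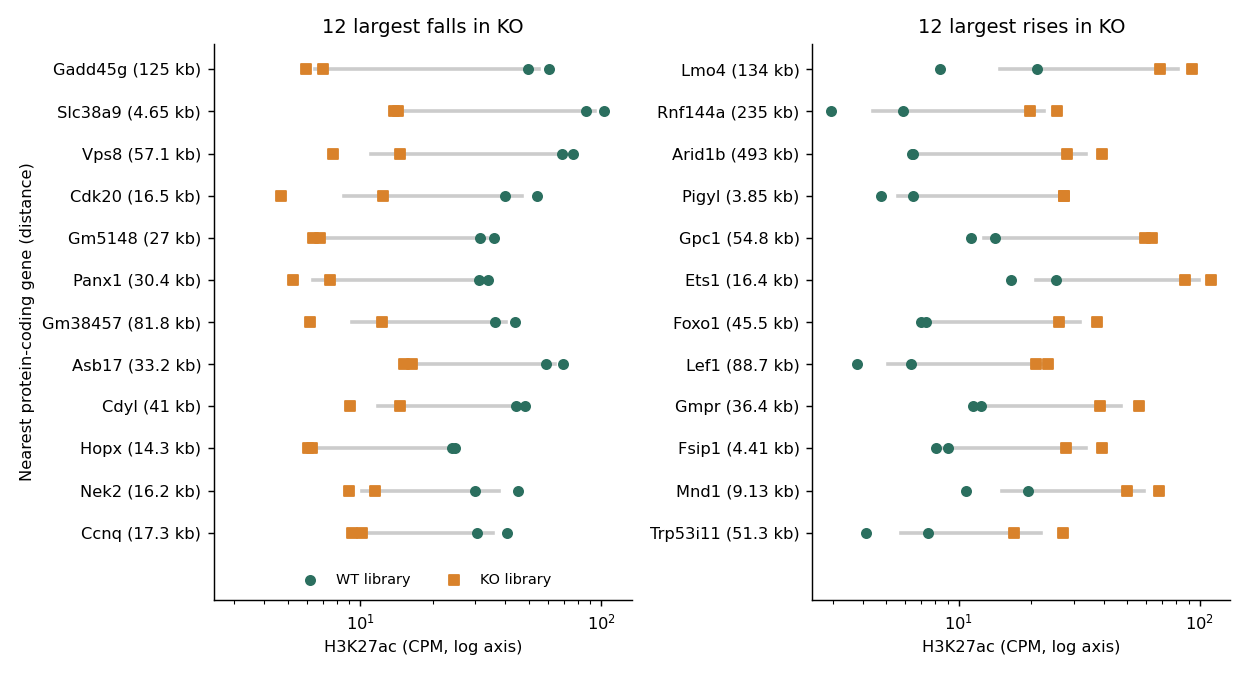
H3K27ac in CPM (log x axis) of the 12 largest falls and the 12 largest rises called in KO with no overlap between genotypes, each named by its nearest protein-coding gene and the distance to it. Circles are the 2 WT and squares the 2 KO libraries, and grey lines join the means; the Gadd45g region goes from 49.6 and 60.9 to 6.98 and 5.94 CPM, and the Lmo4 region from 8.35 and 21.2 to 68.8 and 93.2 CPM.

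Among the strongest of these regions rises were common but small. The 8 with the highest mean CPM lay near Cxcl17, Lipo4, Ppp2r5a, Prdm1, Rgs2, Tbl1xr1, Aff3 and Smndc1, and the first 6 were called higher in KO, by 0.35 to 0.60 on the log2 scale. The Cxcl17 region read 86.7 and 95.1 CPM in WT and 125 and 126 CPM in KO (log2 fold change 0.46 with SE 0.0911, adjusted p = 0.0110 by edgeR). None of the 6 passed without each library in turn. The most remote region, 1412 kb from Cntnap5b, did not pass (6.70 and 3.34 CPM in WT, 8.69 and 5.38 CPM in KO). A region 1250 kb from Zeb2, a repressor of the zinc-finger family, read 15.8 and 20.7 CPM in WT and 19.3 and 21.5 CPM in KO and did not pass either. Of the other 3 remote regions, the one near Zfp386 rose (1.33), the one 610 kb from Arid1b fell (-1.56), and the one 1070 kb from Cited2 did not pass. At the limits of the choice, the widest region (19800 bp, near Pcbp1) stood at 0.25 and the narrowest excluded for width (20600 bp, near Tagap) at 0.83 on the log2 scale, while the closest to a gene (2008 bp from Olfr272) stood at 0.40 and the nearest excluded (1994 bp from Scgb3a1) at -0.12.

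A few genes were nearest to many of these regions. The 2484 regions had 1736 nearest genes, of which 1268 had 1 region and 25 had 5 or more. Cited2, a CBP and p300 binding regulator of stem cells, had 13, at 24.4 to 1070 kb. Of them 2 rose: the stronger read 24.6 and 27.1 CPM in WT and 37.5 and 38.4 CPM in KO, and the other 22.1 and 18.0 CPM in WT and 34.3 and 30.0 CPM in KO. The remaining 11 did not pass. Klf4 had 8 and Klf6 had 7, both zinc-finger factors, and none passed. The strongest Klf6 region, 8.89 kb from the gene, read 70.5 and 64.1 CPM in WT and 70.9 and 66.3 CPM in KO. Runx1, a master regulator of blood formation, had 7. The farthest of these, at 296 kb, fell from 29.4 and 60.7 CPM to 19.2 and 20.7 CPM (log2 fold change -1.18 with SE 0.321, adjusted p = 0.0349 by edgeR). Its KO islands were not shorter (10600 and 9200 bp, against 6200 and 12200 bp in WT), and it was called lower per covered base (-1.26, edgeR adjusted p = 0.0293). The strongest Runx1 region, at 198 kb, read 55.2 and 70.7 CPM in WT and 55.3 and 52.1 CPM in KO and did not pass. Id2, an inhibitor of basic helix-loop-helix factors, had 7 with 2 higher, Nabp1 had 7 with 1 lower, Gadd45g had 6 with 1 in each direction, and Cxcr4 had 6 with 1 higher.

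To order the regions by the role of the nearest gene, 17 lists with 387 genes were used. In all, 220 regions lay nearest to 96 of these genes, and 27 were higher and 10 lower in KO (12.3% and 4.55%), shares near the 11.5% and 6.32% of all 2484. The lists overlap, so a region can count in several, and their medians are set beside the 0.10 of all 2484 regions.

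Regions beside ETS factors had the highest median of any list, largely through regions next to Ets1. ETS factors bind GGAA motifs and direct lymphoid, myeloid and megakaryocytic genes. Of 8 regions next to ETS genes, 4 were higher and none lower, with a median log2 fold change of 1.04, which was -0.04 per covered base. Of these 4, 3 lay next to Ets1. Beside the large rise between Fli1 and Ets1, a second region 39.2 kb from Ets1 read 5.88 and 7.89 CPM in WT and 20.4 and 20.2 CPM in KO (log2 fold change 1.55), and another 120 kb beyond the gene read 11.1 and 7.06 CPM in WT and 29.0 and 15.7 CPM in KO (1.32). The fourth lay 4.57 kb from Erg, a factor of stem cells, and read 22.5 and 22.5 CPM in WT and 46.1 and 42.3 CPM in KO (log2 fold change 0.98 with SE 0.154, adjusted p = 0.00462 by edgeR). A further region next to Ets1 did not pass, at 1.10. Regions next to Elf2, Etv5 and Elk3 did not pass either, at 0.13, -0.07 and -0.35. The 13 regions of T and NK cell genes held 4 higher and none lower with a median of 0.10: the 3 of Ets1 and that of Lef1, while the 3 of Klrb1c (the strongest at 42.6 and 44.4 CPM in WT, 49.7 and 42.9 CPM in KO), Prkcq and the rest did not pass. Of 4 regions next to B cell genes, the Foxo1 region rose, and those next to Bank1, a B cell scaffold, and Btla, an inhibitory receptor, did not pass, at 0.21 and -0.34.

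Of the regions beside Kit, Runx1 and Myb, 1 next to each gene fell. KIT is the receptor of stem cell factor, MYB keeps progenitors immature, and GATA2 acts in stem and early erythroid cells. Of 14 regions next to stem cell genes, 1 was higher (Erg) and 2 lower (Kit and Runx1), with a median of -0.06. The region 85.9 kb beyond Kit read 26.2 and 23.1 CPM in WT and 14 and 10.7 CPM in KO (log2 fold change -0.99 with SE 0.231, adjusted p = 0.0207 by edgeR). The other region next to Kit (0.57) and the other 6 next to Runx1 (-0.61 to 0.71) did not pass. On the other side of Kit, between it and Pdgfra, a growth factor receptor of mesenchymal cells, 2 regions fell. The one 176 kb from Pdgfra and 191 kb from Kit read 31.3 and 36.7 CPM in WT and 8.05 and 11.8 CPM in KO (log2 fold change -1.79, SE 0.247), and the other went from 10.5 and 14.7 CPM to 6.34 and 5.11 CPM (-1.14). Pdgfra itself met no H3K27ac island in any library. These 2 were the lower calls among 4 regions of stromal and endothelial genes (median -0.83), where none was higher and Pecam1 stood at -0.53.

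Between Myb and Hbs1l 3 regions fell, over a stretch of 56.2 kb with no other region of this kind. The region 56.0 kb from Myb read 84.1 and 87.8 CPM in WT and 30.8 and 53.3 CPM in KO (log2 fold change -1.04 with SE 0.232, adjusted p = 0.0176 by edgeR). The next read 60.7 and 66.6 CPM in WT and 32.6 and 39.0 CPM in KO (-0.83), and the last 32.3 and 49.0 CPM in WT and 15.1 and 17.1 CPM in KO (-1.34). No KO library reached a WT library in any of them, and none of the 3 calls held without each library in turn. Of the 25 regions next to GATA and erythroid genes, which include Myb and Cited2, 2 were higher and 1 lower (median 0.06). The region 24.3 kb from Gata2, in the gap to Rpn1, read 42.7 and 38.4 CPM in WT and 33.3 and 24.4 CPM in KO and did not pass (-0.49, edgeR adjusted p = 0.108). Neither of the 2 regions next to megakaryocyte genes passed, among them that of Thbs1 at 0.22.

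Of 30 regions next to granulocyte and monocyte genes, 3 were higher and none lower (median 0.32). Gfi1, a repressor needed for neutrophils, had a region that read 27.3 and 35.3 CPM in WT and 57.9 and 48.2 CPM in KO (log2 fold change 0.76), and it held the start of the lncRNA 4930428O21Rik. Id2 had the other 2. The one at 296 kb went from 6.59 and 16 CPM to 40.1 and 39.0 CPM (log2 fold change 1.78 with SE 0.363, adjusted p = 0.0126 by edgeR), and the one at 64.7 kb from 21.5 and 14.7 CPM to 28.1 and 34.3 CPM (0.79). A region between them, at 111 kb, read 38.1 and 28.6 CPM in WT and 45.7 and 23.9 CPM in KO, with the genotypes overlapping. Regions of Cebpb and Itgam, a factor and an integrin of myeloid cells, did not pass, at 0.14 and -0.08, although each read over 40 CPM in every library. The Id2 regions were also the 2 calls among 11 regions of dendritic cell genes (median 0.39), where none was lower. Csf1, the growth factor of macrophages, is in the basophil and mast cell list and gave the 1 call, higher, among its 4 regions (median 0.39). Its region read 11.1 and 13.8 CPM in WT and 29.8 and 20.1 CPM in KO (log2 fold change 1.0). No region lay nearest to an eosinophil gene.

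Most regions of stimulus-response genes did not pass. AP-1 and NF-kB factors are switched on by stress and cytokine signals, and interferon gamma acts through the receptor that Ifngr1 encodes. Of 41 regions of this list, 6 were higher, none lower and 35 not called (median 0.15). Over all 2484 regions 11.5% were higher and 6.32% lower (median 0.10), and so few regions would give few lower calls at that share. Nfkbia, the inhibitor of NF-kB, had a region that read 25.3 and 22.6 CPM in WT and 57.1 and 62.9 CPM in KO (log2 fold change 1.33 with SE 0.143, adjusted p = 0.00115 by edgeR). Fosl2, an AP-1 subunit, had 2, which rose by 1.44 and 0.86. Ifng had a weak region of 3.41 and 4.17 CPM in WT and 11.3 and 10.2 CPM in KO (1.49), and Il6 and Atf3 had regions that rose by 0.83 and 0.84. None of the 5 regions next to Jun, the founding AP-1 subunit, passed (-0.67 to 0.62), and neither did the 2 next to Irf2 (-0.22 and 0.08). Among 20 regions of cytokine and chemokine receptors, 5 were higher and 2 lower (median 0.33). Ifngr1 had 3 neighbouring regions that all rose, by 1.09, 0.58 and 0.41, while the one closest to the gene read 47.4 and 78.7 CPM in WT and 64.7 and 69.5 CPM in KO and did not pass. Cxcr4, which holds stem cells in the marrow, had a region that went from 12.1 and 12.7 CPM to 23.3 and 38.1 CPM (1.30), and the adjoining one read 26.2 and 28.8 CPM in WT and 33 and 34.1 CPM in KO without passing (0.28). S1pr1, a receptor of cell egress, had 1 higher (0.96, at 2.83 kb) and 1 lower (-0.94, at 33.6 kb), and Kit gave the other lower call.

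Of 75 regions next to RUNX, MYB, KLF and other factors, 6 were higher and 5 lower (median 0.16). The strongest called was 98.8 kb from Prdm1, the repressor of plasma cells, and went from 70.7 and 74.0 CPM to 96.3 and 109 CPM (log2 fold change 0.50). Klf13, a zinc-finger factor of lymphoid cells, had 2 regions that fell, next to each other. The stronger went from 41.5 and 55.2 CPM to 25.8 and 18.6 CPM (-1.12, SE 0.221, edgeR adjusted p = 0.0110). The weaker stood at -1.22, and a region of Bach1, a repressor of haem-regulated genes, at -0.80. Hhex, a homeobox gene of early progenitors, had one at 0.70 whose adjusted p of 0.05 by edgeR lay just under the threshold. Runx3 stood just outside it: 92.6 and 84.5 CPM in WT and 71.1 and 51.0 CPM in KO (-0.53, edgeR adjusted p = 0.0515). Among 28 regions of leukaemia genes 1 was higher (Idh2, 0.92) and 2 lower (Kit and Runx1), with a median of 0.08. Among 16 regions of COMPASS, Polycomb and coactivator genes none was higher and 1 lower (median -0.05). That region lay 46.6 kb from Ep300, which encodes p300, an enzyme that writes H3K27ac, and read 49.9 and 48.7 CPM in WT and 15.2 and 18.5 CPM in KO (log2 fold change -1.55 with SE 0.171, adjusted p = 0.00122 by edgeR). Regions of Jarid2, a Polycomb subunit, and Bcor, a corepressor, did not pass, at -0.07 to 0.30 for the 4 of Jarid2 and -0.30 to 0.89 for the 5 of Bcor. None of the 6 regions of housekeeping genes passed. Those 6 had a median of -0.40, with 4 next to Ywhaz at -0.10, -0.71, -0.78 and -0.84.

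**Figure D4:**
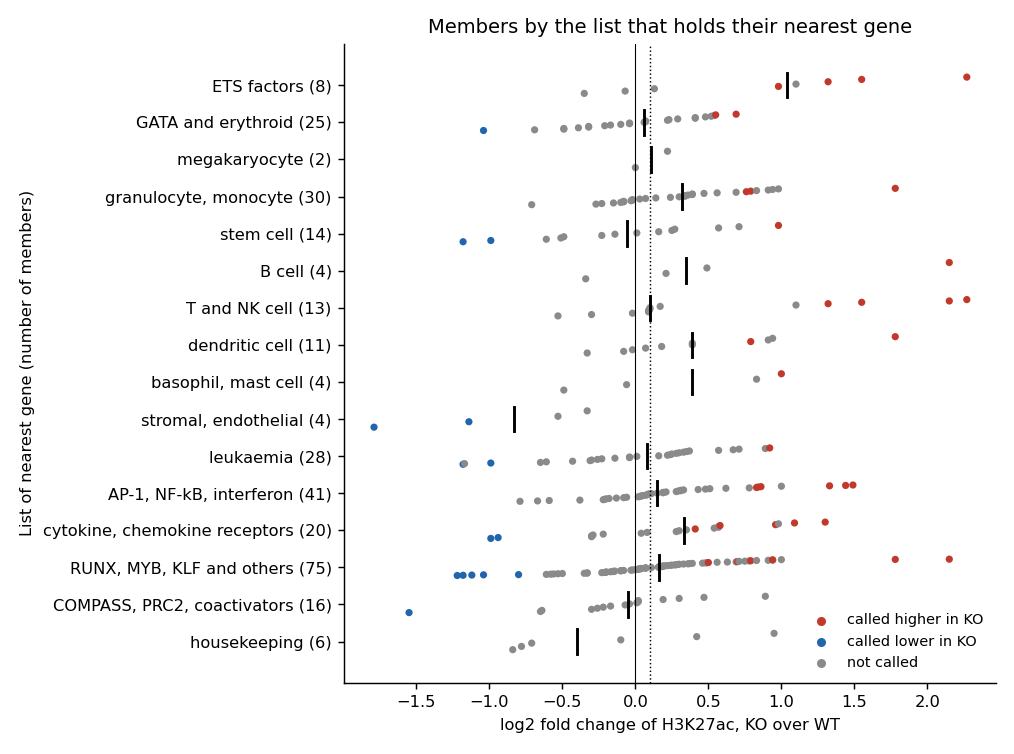
Log2 fold change of H3K27ac (KO over WT, x axis) of intergenic regions whose nearest gene is in a list (y axis, number of regions in parentheses), 1 point per region. Red points were called higher, blue lower and grey not called; the black bar is the list's median (1.04 for ETS factors) and the dotted line the median of all 2484 regions (0.10).

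Most adjacent called regions had the same direction, yet not all. Of 47 pairs of adjacent called regions less than 50 kb apart, 40 had the same direction (27 both higher and 13 both lower) and 7 were opposite. Within 200 kb there were 82 such pairs, 63 alike and 19 opposite. Since 64.5% of all 442 calls were higher, some pairs agree in direction by that alone. Pairs over all tested regions were not counted, so these counts are not a trait particular to the intergenic regions. Chains of 3 or more called regions linked by gaps of at most 200 kb numbered 12, of which 5 were all higher, 3 all lower and 4 mixed. These chains and the genes in them were picked out after their values were seen. Around Trib1, a pseudokinase that controls C/EBP proteins, 4 called regions over 250 kb all rose, by 0.76 to 1.30. Tent5a and the interval from Ado to Zfp365 also had chains of rises only, and the 3 called regions near Bahcc1 all fell.

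The longest chain ran over 666 kb from Atf3 to Nek2 on chromosome 1, with 12 regions, 5 called higher and 2 lower. The region near Atf3, a stress-induced factor, rose from 6.12 and 5.08 CPM to 9.68 and 10.3 CPM. A region 35.2 kb from Nenf then fell from 17.9 and 21.1 CPM to 10.1 and 6.13 CPM (-1.26), and 3 regions near Ppp2r5a, a regulatory subunit of phosphatase 2A, rose by 0.35, 1.0 and 1.80. The region near Nek2 at the far end fell from 29.9 and 45.2 CPM to 11.5 and 9.0 CPM. On chromosome 3 the large rise near Lmo4 was followed by a smaller rise (0.62) and, 41.7 kb from Hs2st1, by a fall from 104 and 83.6 CPM to 66.5 and 61.2 CPM (-0.55). In the gene desert before Arid1b, 2 regions changed in opposite directions within the same gap between Nox3 and Arid1b. The one at 610 kb fell from 36.3 and 32.9 CPM to 9.68 and 13.9 CPM (log2 fold change -1.56 with SE 0.232, adjusted p = 0.00385 by edgeR), and the one at 493 kb rose from 6.47 and 6.38 CPM to 28.3 and 39.4 CPM (2.39, SE 0.248, edgeR adjusted p = 0.00100). In all, 10 genes had called regions of both directions: Arid1b, Cd24a, Cyria, Gadd45g, Gja1, Hmgb1, Mc2r, Pnp2, Rgs8 and S1pr1.

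**Figure D5:**
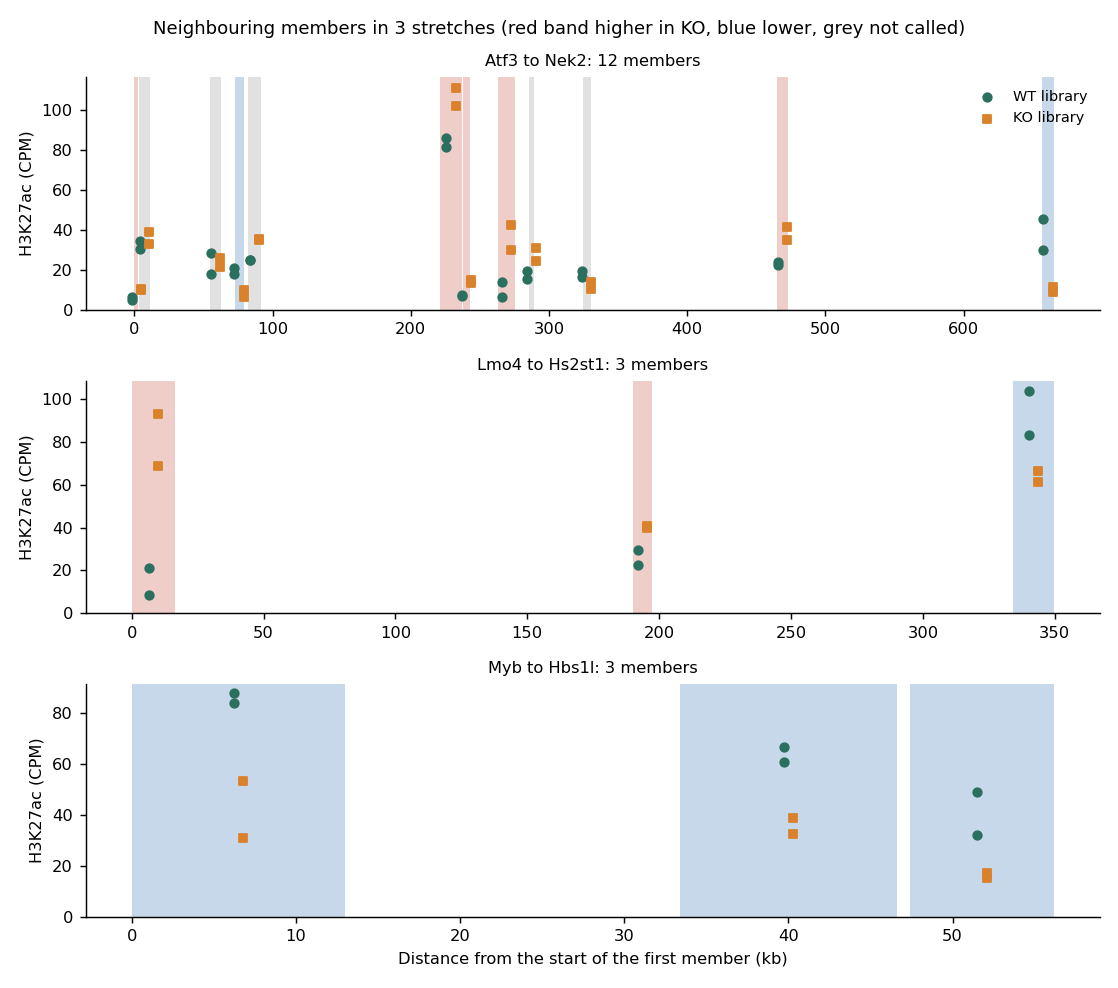
H3K27ac in CPM (y axis, linear) of every intergenic region in 3 stretches, by distance from the start of the first region (x axis, kb). Circles are WT and squares KO libraries, and bands show each region's extent, red where called higher, blue lower and grey not called. Of the 12 regions from Atf3 to Nek2, 5 were called higher and 2 lower, the Lmo4 stretch goes from 2 rises to a fall, and all 3 regions between Myb and Hbs1l fell.

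Non-coding genes overlapped many of the regions. Of 2484, 819 (33%) overlapped an annotated non-coding gene, and 727 of them a lncRNA. Of the 251 that held a lncRNA start, 38 were higher and 25 lower (15.1% and 9.96%), against 11.1% and 5.91% of the 2233 without. The regions with a start were also stronger, with a median of 19.8 CPM against 14.1 CPM, so level moves with this difference and its part was not tested. In the Gm42210 window shown above, the region read 36.0 and 31.4 CPM in WT and 6.34 and 6.78 CPM in KO, with islands of 12800 and 9000 bp against 2800 and 2000 bp. The Gm51802 region read 12 and 27.7 CPM in WT and 60.1 and 86.4 CPM in KO, and the Gm29933 region 46.7 and 53.8 CPM in WT and 11.6 and 20.8 CPM in KO. The windows shown were taken from called regions without overlap between the genotypes, so the lack of overlap in these 3 is not a result. Of lncRNAs with names of their own, picked out after their values were seen, the region of Mexis, which lies 108 kb from Abca1, fell from 16 and 14 CPM to 8.76 and 7.70 CPM (-0.86). The region of Dubr rose from 21.6 and 15.6 CPM to 36.9 and 35.0 CPM (0.96), and those of Firre, Kantr, Junos and Chaer1 did not pass.

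The regions held 5 microRNA hairpins, in 4 regions. Mirlet7b and Mirlet7c-2, of the let-7 family that restrains growth genes, share the region 26.9 kb from Ppara, at chr15:85696001-85708000. Their 5p arms are shown, from RefSeq on GRCm38.p6, because their shared seed (bases 2 to 8, in capitals) is the same.
mmu-let-7b-5p: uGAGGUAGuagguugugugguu
mmu-let-7c-5p: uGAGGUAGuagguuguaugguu
The region read 11.1 and 22.2 CPM in WT and 18.8 and 24.0 CPM in KO, and the genotypes overlapped (log2 fold change 0.35 with SE 0.337, adjusted p = 0.488 by edgeR). None of the other 3 regions with a hairpin passed either, at 0.15, -0.05 and -0.60.

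H3K27me3, which the choice of the regions did not use, was rare in them. Of 2484 regions, 155 (6.24%) met an H3K27me3 island in at least 1 of 4 libraries, against 11.9% of all 18820 tested regions, and 20 met one in all 4. All tested regions include those at genes and 1676 of 20 kb or wider, which the choice left out. Their median width was 7000 bp, against 5000 bp in the intergenic regions, and a wider region meets an island more easily. The part of width and position in this difference was not tested. The WT libraries had 71 and 82 such regions and the KO libraries 63 and 58. Both WT counts were above both KO counts (76.5 ± 7.78 against 60.5 ± 3.54, mean ± SD, n = 2 each), and an exact two-sided permutation test gave p = 0.333, the smallest possible. H3K27me3 islands as a whole were also fewer in KO, at 15743 and 14665 against 18847 and 20412. Of the 155 regions, 31 were called higher and 15 lower in H3K27ac (20% and 9.68%), against 11.5% and 6.32% of all 2484. These shares were not matched for width or level.

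The regions with most H3K27me3 reads included one 8.43 kb from Erfl (838 and 863 for WT, 743 and 1433 for KO) and one 6.57 kb from Tmem200b (731 and 876 for WT, 705 and 828 for KO). H3K27ac rose in the second (log2 fold change 1.39 with SE 0.285, adjusted p = 0.0130 by edgeR), while its H3K27me3 reads overlapped between the genotypes. Near Bahcc1, a region had 0 and 328 H3K27me3 reads in WT and 962 and 835 in KO, and its H3K27ac fell from 28.0 and 30.4 CPM to 11.1 and 8.17 CPM (log2 fold change -1.59 with SE 0.233, adjusted p = 0.00354 by edgeR). The other 2 lay near Ngfr and Asic1, and their H3K27ac did not pass. H3K27me3 islands in both WT and neither KO library were met by 9 regions, and in both KO and neither WT library by 4, next to Ovol2, Mn1, Krt80 and Fam3b. Of these 4, named after their values were seen, Mn1 and Krt80 had lower H3K27ac in KO (-1.13 and -0.85), Fam3b had higher (1.54), and Ovol2 did not pass. Of the 9, the region 4.36 kb from Vav1, a signalling gene of blood cells, rose from 61.2 and 64.9 CPM to 90.9 and 96.5 CPM.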

How the data were processed

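H3K27ac, H3K27me3, UTX and IgG ChIP-seq of lineage-depleted bone-marrow progenitors was analysed. The authors deposited, for each library, a list of SICER islands on mouse build mm10 with whole counts of reads per island, and per the submitters' processing notes SICER was the caller; its version, the aligner, thresholds and controls are not given in the sources used here. Islands were built of 200 bp windows, and the smallest gap between H3K27ac islands was 800 bp. Only island reads of the placed chromosomes (1 to 19, X, Y) entered, and depth is their total.

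H3K27ac islands sharing at least 1 bp were merged over the 4 libraries, and island counts were summed per region. The 18820 regions with an island in all 4 were fitted together with edgeR 4.0.16 in R 4.3.3 (TMM, glmQLFit and glmQLFTest, two-sided, Benjamini-Hochberg over all regions, threshold 0.05). CPM values use the TMM-scaled reads in tested regions, log2 fold changes are KO over WT, and SE comes from the F statistic. Distances are gaps to the 21887 placed protein-coding genes of RefSeq GRCm38.p6. lncRNA starts and their strand are those of the RefSeq promoter windows. Single values per library were compared by an exact permutation test. Alternatives were DESeq2 1.42.0, other scalings, filters, distances, widths and merging, reads per covered base, a replicate block and leaving out each library.

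Regions named are the 12 largest falls and 12 largest rises without overlap, the 8 strongest, the 5 farthest, up to 6 called and 3 not called per gene list, the 8 genes with most regions, the 5 regions with most H3K27me3 reads, and those at each limit. All other named regions were chosen after their values were seen. The regions and the lists were chosen with earlier results of these data known.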

Additional observations from a re-analysis of the deposited data

How the results depend on the processing

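The counts of regions higher and lower in KO (285 and 157) stayed within 1.5 times with DESeq2 (250 and 145, beside 11.2% and 13.0% of all regions), scaling to total island reads (400 and 128), at least 50 reads in every library, autosomes only, merging over gaps up to 1 kb, distances over 5 or 10 kb, widths under 10 kb and without regions that met an IgG island. Scaling to total island reads moved all 18820 regions towards rises as well, with 3213 higher and 2061 lower, against 2258 and 2631 with TMM. The counts of intergenic regions moved further in 4 other settings. With all regions that had an island in at least 2 libraries in the fit they were 146 and 87 (5.88% and 3.50%). Over all 28443 regions of that fit 11.6% were higher and 18.4% lower. Per covered base the counts were 6 and 9. With 1 island of similar length per library they were 39 and 19, among 219 regions. More than 2 kb from any annotated gene, lncRNAs included, they were 143 and 87, among 1542 regions. The cause was not tested, except that the last 2 settings hold fewer regions. Leaving out a library, which assumes that the lone library of a genotype varies like the other group, gave 139 to 166 higher and 58 to 117 lower. Deviations of WT and KO replicate 1 from their group means had a correlation of 0.0458 over all tested regions. This value cannot show whether libraries of the same number were prepared together. A fit with the replicate number as a block called 348 and 192, beside 13.9% and 15.3% of all regions. The difference in the share of island reads (0.611 percentage points) ranged from 0.577 to 0.644 without a library and was 0.521 over tested regions. The difference in regions with an H3K27me3 island (-16.0) ranged from -21.5 to -10.5 and was -7.00 with at least 50% of the region covered, and p could not fall under 0.333. Of the 24 largest changes, 8 held per covered base, 16 no longer passed and 0 reversed. Calls were fewer among regions under 10 CPM, and the part of depth in this was not tested.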

Other observations

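On the X chromosome, which carries Kdm6a, 74 of the intergenic regions lay, and 8 were higher and 1 lower in KO (median log2 fold change 0.31). Over all 2484 regions 11.5% were higher and 6.32% lower (median 0.10), so the rises on X were not unusually frequent. Falls on X were fewer and the median was higher. These differences were not tested, and the labels do not state the sex of the mice. Calls over all tested regions of this chromosome were not counted. The called X regions below were named after their values were seen. The region 7.52 kb from Tlr8, a sensor of single-stranded RNA in myeloid cells, read 34.2 and 26.5 CPM in WT and 50.2 and 50.8 CPM in KO (log2 fold change 0.74 with SE 0.164, adjusted p = 0.0173 by edgeR). Near Vsig4, a complement receptor of macrophages, the values were 69.2 and 76.2 CPM in WT and 101 and 94.5 CPM in KO (0.43). Near Tmsb4x, an actin-binding peptide gene, a region rose by 0.51, and 2 regions near Rps6ka3, a kinase gene, rose by 0.66 and 1.23. The remaining rises lay near Dach2, Gria3 and Zcchc13. The region near Tsc22d3, a glucocorticoid-induced gene, fell from 78.3 and 65.9 CPM to 48.3 and 48.2 CPM (-0.58). None of these 9 calls held without each library in turn.

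3 regions whose islands had like lengths in both genotypes changed with reads per covered base as well, and were picked out after their values were seen. The region 9.32 kb from Pde7b, a cAMP phosphodiesterase gene, fell from 26 and 23.8 CPM to 8.12 and 9.93 CPM (log2 fold change -1.47, SE 0.226), and per covered base by 1.31. A second region near Asb17, which holds the start of the lncRNA 5730460C07Rik, fell from 66.5 and 69.1 CPM to 26.3 and 25.5 CPM (-1.39, SE 0.124). The region 4.11 kb from Cdc73, a subunit of the PAF1 elongation complex, rose from 16.7 and 12.7 CPM to 42.3 and 35.3 CPM (1.41, SE 0.212). These 3 calls held without each library in turn. Only 3 of the 2484 regions met an island of the IgG library.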
